A study of Ambystoma mexicanum with 49 samples.

Results

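ISY1, C19orf25 and FAM114A1 are 3 of the 15631 genes measured in embryos of the axolotl (Ambystoma mexicanum, a salamander widely used to study regeneration and development). They were chosen from measured values: each was listed at 0 in both poly(A) RNA libraries of stage 1, the uncleaved egg, and each was present in poly(A) libraries of cleavage. All 3 passed the filter on low counts in both kinds of library. Poly(A) RNA had been sequenced from 49 single embryos with no treatment, de-jellied and collected at 20°C, from the 17 stages 1 to 12, 14, 16, 19, 24 and 40. Each of 15 stages has 3 libraries, and stages 1 and 11 have 2. The study also deposited 5 total RNA libraries, prepared by removing ribosomal RNA instead of selecting tails, 3 of stage 2 and 2 of stage 1, and the sources used here do not say which embryos gave them. Library totals were 12.0 to 44.9 M estimated counts for poly(A) RNA and 17.4 to 25.5 M for total RNA. Strain and sex are not given in the sources used here.

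ISY1 is a splicing factor: it sits with the Prp19 complex in the spliceosome, the machine that cuts introns out of RNA, and was first studied in budding yeast. FAM114A1 is a little-studied protein, known in mouse as Noxp20 and found in the developing nervous system, and FAM114A2 is the other member of its family. C19orf25 takes its name from an open reading frame on a human chromosome, and no function is given for it here. An egg is loaded with messenger RNA made in the ovary, and the embryo lives on it through the rapid cell divisions of cleavage, before its own genes are broadly switched on. Stored messages are often kept with short poly(A) tails, which can be lengthened in the cytoplasm without any new transcription. Poly(A) selection captures RNA by that tail, whereas removal of ribosomal RNA leaves messages with and without one.

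In stage 1 embryos both poly(A) libraries listed ISY1 at 0, while both total RNA libraries held it in quantity. The ISY1 poly(A) levels were 15.8, 4.20 and 37.9 TPM (a level adjusted for gene length and library total) in the 3 stage 2 libraries, against 0 and 0 TPM in the 2 stage 1 libraries. Its total RNA levels were 51.7, 36.6 and 38.3 TPM at stage 2, against 42.7 and 44.7 TPM at stage 1. In total RNA the stage 2 range enclosed that of stage 1. The 0 of each gene in stage 1 poly(A) RNA was part of the choice of genes, so the poly(A) difference is description only. In estimated counts, the total RNA libraries held 1348, 759 and 778 for ISY1 at stage 2, against 956 and 983 at stage 1. The poly(A) and total RNA tables were normalized apart, so a level in one is not tested against a level in the other.

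FAM114A1 had a similar contrast between the kinds of library at stage 1, but entered poly(A) RNA later than ISY1. Its poly(A) levels were 0, 0 and 16.97 TPM in the stage 2 libraries and 0 and 0 TPM in the stage 1 libraries, so a single stage 2 embryo, replicate 3, held all of it. The total RNA levels of FAM114A1 were 28.1, 20.5 and 25.2 TPM at stage 2, against 22.8 and 19.0 TPM at stage 1. Those ranges overlapped.

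C19orf25 was different, since total RNA held little of it at either stage. Its poly(A) levels were 32.0, 14.6 and 48.0 TPM at stage 2, against 0 and 0 TPM at stage 1. Its total RNA levels were 0, 6.11 and 0 TPM at stage 2, against 10.4 and 0 TPM at stage 1. Only 1 library of each stage held any, with 30.3 estimated counts at stage 2 and 55.7 at stage 1, so total RNA gave no steady level for this gene.

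**Figure D1:**
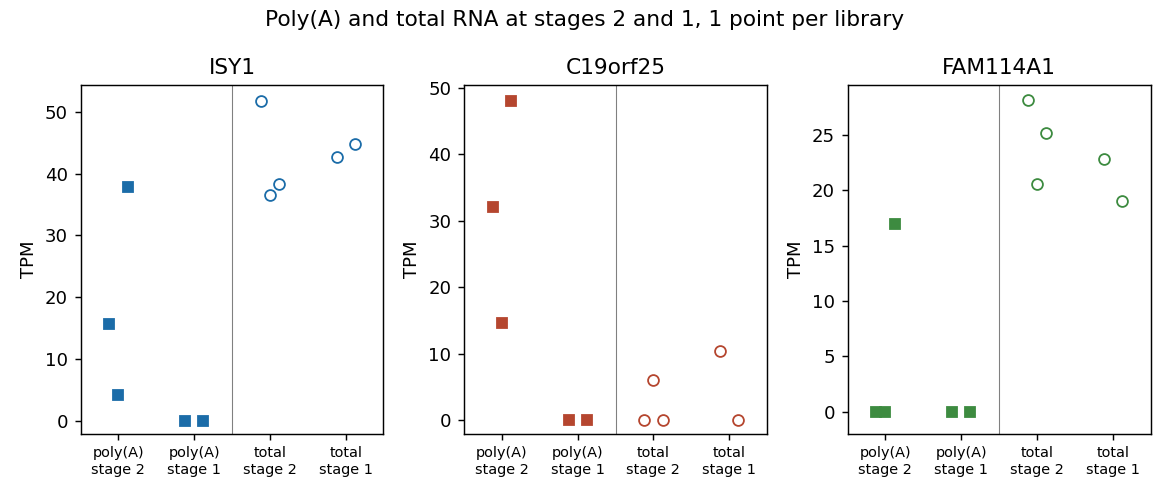
Levels in TPM (vertical axes) of ISY1, C19orf25 and FAM114A1 in poly(A) libraries (filled squares) and total RNA libraries (open circles) of stages 2 and 1, with 1 point per library. Poly(A) RNA of all 3 genes is at 0 in both stage 1 libraries, while total RNA of ISY1 lies at 42.7 and 44.7 TPM and that of FAM114A1 at 22.8 and 19.0 TPM there.

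The total RNA comparison of stage 2 with stage 1 was not used to choose the genes and could be tested. By edgeR's quasi-likelihood test, adjusted over 11419 genes, none of the 3 passed a threshold of 0.05, where 1.99% of genes were called. Called genes in either direction numbered 227. ISY1 had a log2 change of -0.09 ± 0.13 (SE; 3 libraries against 2) with an edgeR adjusted p of 0.767, and its 95% interval ran from -0.39 to 0.21. For FAM114A1 the log2 change was 0.19 ± 0.18 with an edgeR adjusted p of 0.607 and an interval of -0.21 to 0.60. These intervals leave room for small changes in total RNA in either direction. The total RNA replicates may be technical, in which case no SE, interval or p here covers spread between embryos. C19orf25 had a log2 change of -1.40 ± 1.61 with an edgeR adjusted p of 0.692, and the interval of -5.04 to 2.23 leaves its direction unknown. Without the stage 1 library that held it the log2 change of C19orf25 was 6.44, and over the 4 fits with 1 library left out in which the gene was still tested it ranged between -2.39 and 6.44.

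In poly(A) RNA the same pair of stages, and stage 8 with stage 1, chose the genes, so their differences are given as description. Folds set the mean of a stage in TMM-scaled CPM (counts relative to the library total after edgeR's TMM adjustment) against a floor. The floor was 3 counts over both stage 1 libraries. The stage 2 mean was at least 259-fold higher for ISY1, 103-fold for C19orf25 and 29.9-fold for FAM114A1. Only the stage 1 side is bounded, and single embryos differed: ISY1 had 17.9, 4.52 and 37.1 scaled CPM at stage 2. Relative to the library totals with no TMM adjustment, the bounds were 247-fold, 97.4-fold and 29.6-fold in the same order of genes. The FAM114A1 bound rests on 1 embryo of 3. At stage 8 the TMM-scaled bounds were at least 414-fold higher than stage 1 for ISY1, 94.0-fold for C19orf25 and 152-fold for FAM114A1. All 3 were called by edgeR in both comparisons, in which 32.7% of the 14437 genes tested were called for stage 2 against stage 1 and 59.9% for stage 8 against stage 1. Nothing is read from these calls.

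A poly(A) level of 0 in the egg was common among genes in general, but rare among genes that total RNA detected. Of the 15631 genes, 2233 (14.3%) were at 0 in both stage 1 poly(A) libraries. Of the 11009 genes with at least 10 counts in each stage 1 total RNA library, 53 (0.481%) were at 0 in poly(A) RNA. Ranked by the lower of their total RNA counts, ISY1 was number 1 of those 53 with 956 counts. WDR53 came next with 227, and FAM114A1 was number 5 with 173. C19orf25 did not enter this count, since 1 of its stage 1 total RNA libraries was at 0.

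**Figure D2:**
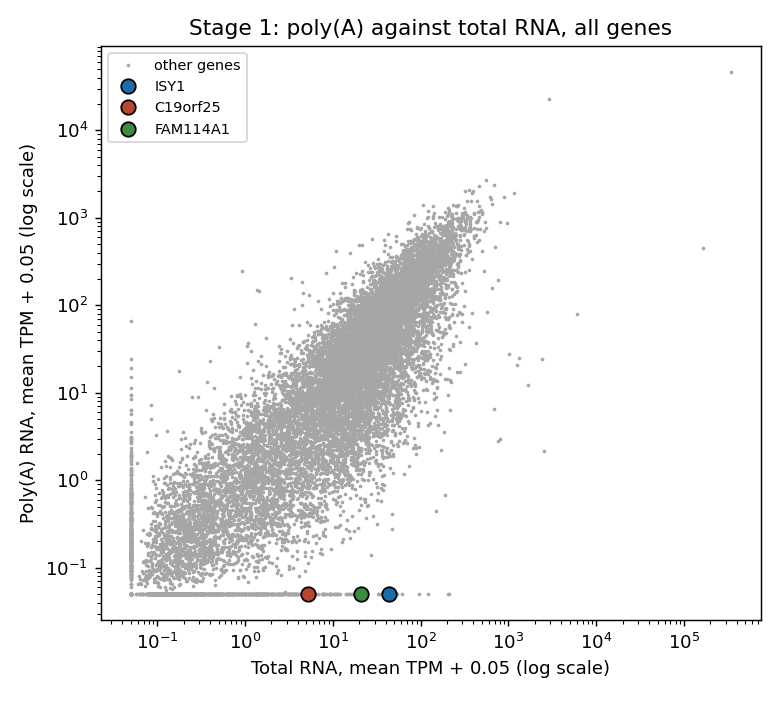
Mean poly(A) level against mean total RNA level at stage 1 for every gene, both as TPM plus 0.05 on log axes. The 3 coloured genes lie on the lower edge, where poly(A) RNA is at 0, and ISY1 is farther right than C19orf25 and FAM114A1.

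The description was widened to every gene at 0 in both stage 1 poly(A) libraries with a mean of at least 10 TPM over stages 2 to 8. There were 4 such genes: ISY1 at 26.5 TPM, C19orf25 at 26.0, ZNF266 at 18.4 and FAM114A1 at 17.7. The next genes below the limit were REPIN1 at 6.95 TPM and CKAP4 at 6.71 TPM. ZNF266, named for its zinc fingers, had poly(A) levels of 5.02, 0 and 52.8 TPM at stage 2, and total RNA levels of 0.854, 9.51 and 3.44 TPM at stage 2 against 8.51 and 4.82 TPM at stage 1. CKAP4 was at 0 in all 5 total RNA libraries.

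All 3 genes were highest at stage 2 in the same embryo, replicate 3. So were ZNF266, REPIN1, CKAP4, ZNF83 and LOC100292565, which makes 8 of the 8 genes at 0 in stage 1 that averaged 5 TPM or more over stages 2 to 8. Replicate 3 was also the highest of the 3 stage 2 embryos for 52.2% of the 9613 genes that reached 5 TPM in a stage 2 library. Among the 34 genes at 0 in stage 1 that reached 5 TPM in a stage 2 library, with no condition on later stages, 17 were highest in replicate 3. What sets that embryo apart was not tested. It had 15.5 M estimated counts, against 23.3 M and 21.2 M in replicates 1 and 2.

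Across the 17 stages the genes followed different courses. In TPM, ISY1 had its highest mean levels from stage 7 to stage 11 and its lowest after the egg at stage 40. In the TMM-scaled CPM that the tests use its highest mean was at stage 12, at 45.2, and stages 14 and 16 had 36.5 and 32.8, above the 32.5 of stage 7. C19orf25 was present at stages 2 to 9, patchy at stages 10 and 11, listed at 0 from stage 12 to stage 19 and present again in 2 of 3 embryos at stage 40. FAM114A1 was at or near 0 through stage 3 in all but 1 embryo, present in every embryo from stage 4 on, and highest at stage 40. As these are whole embryos, fewer cells that hold a message and less of it per cell cannot be told apart.

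**Figure D3:**
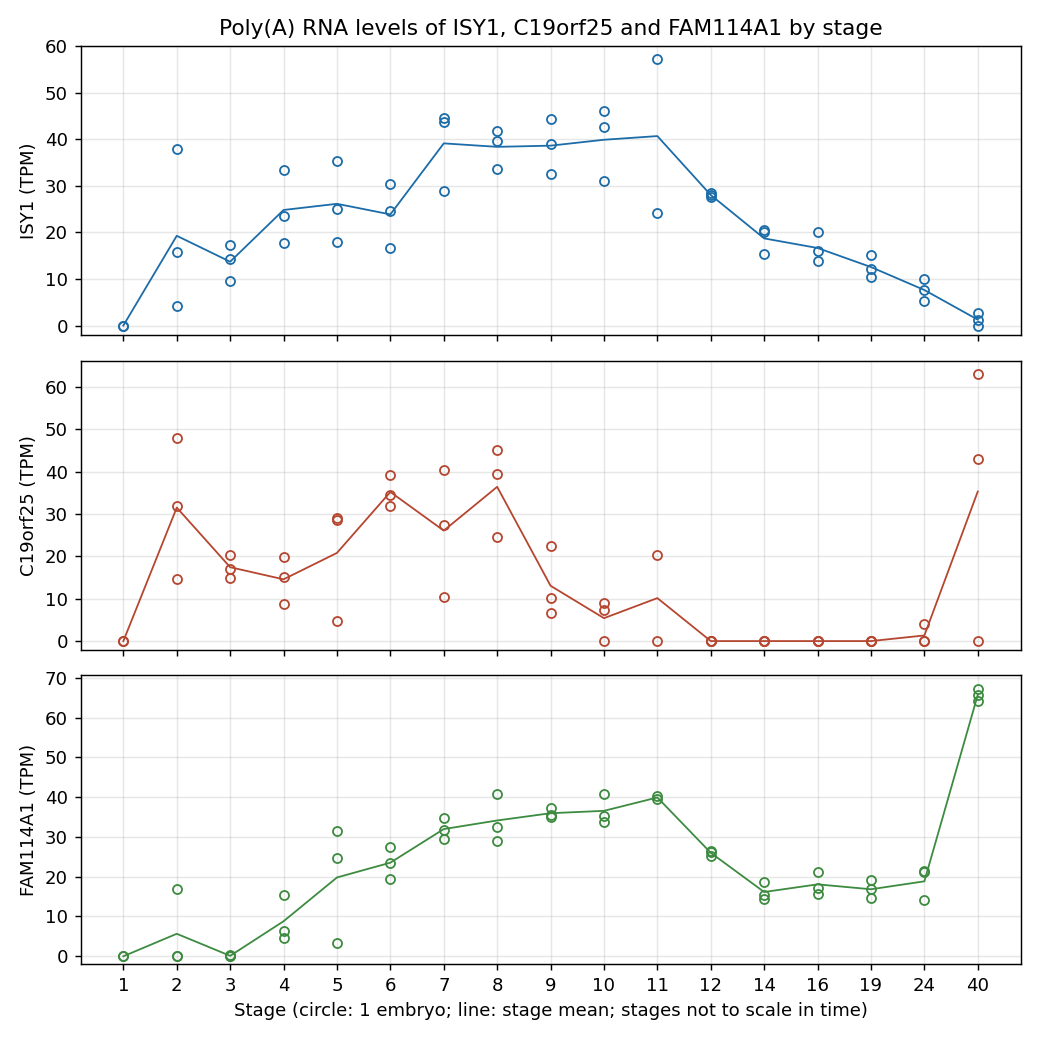
Poly(A) RNA level in TPM (vertical axes) at each of the 17 stages for ISY1, C19orf25 and FAM114A1, with a circle for each embryo and a line through the stage means. All 3 are at 0 at stage 1, and at stage 40 ISY1 is at 0 to 2.68 TPM while FAM114A1 is at 64.3 to 67.3 TPM.

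For ISY1, poly(A) levels were 9.64, 14.2 and 17.3 TPM at stage 3, 17.7, 23.5 and 33.4 TPM at stage 4, and 35.4, 25.1 and 18.0 TPM at stage 5. They were 30.4, 24.6 and 16.7 TPM at stage 6, 44.7, 43.8 and 29.0 TPM at stage 7, and 39.7, 33.6 and 41.9 TPM at stage 8. Each stage of this stretch overlapped the one before it except stage 4, whose lowest embryo was only just above the highest of stage 3. ISY1 stayed at this height, with 32.6, 44.5 and 38.9 TPM at stage 9, 46.1, 31.0 and 42.6 TPM at stage 10, and 24.2 and 57.2 TPM at stage 11. Levels then lay at 27.6, 28.5 and 28.1 TPM at stage 12, 20.1, 20.6 and 15.4 TPM at stage 14, and 13.9, 16.0 and 20.0 TPM at stage 16. The 3 embryos of stage 12 were close together and all above those of stage 14. At stage 19 they were 10.5, 12.2 and 15.1 TPM, at stage 24 they were 10.1, 5.17 and 7.62 TPM, and at stage 40 they were 1.09, 2.68 and 0 TPM. No embryo of stage 24 reached the lowest of stage 19, and none of stage 40 reached the lowest of stage 24. Ordered by mean TPM, stages 11, 10, 7, 9 and 8 led, with means of 40.7, 39.9, 39.2, 38.7 and 38.4 TPM. Of the 15 pairs of neighbours in that order of stages with ISY1 present, the ranges of 12 overlapped.

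For C19orf25, poly(A) levels were 17.1, 20.3 and 15.0 TPM at stage 3, 15.1, 8.70 and 20.0 TPM at stage 4, and 29.1, 28.7 and 4.71 TPM at stage 5. At stage 6 they were 32.0, 39.3 and 34.4 TPM, at stage 7 they were 27.5, 10.3 and 40.5 TPM, and at stage 8 they were 45.2, 39.5 and 24.7 TPM. Stages 5 and 7 each had 1 embryo far below the other 2. After stage 8 the levels were 6.66, 22.5 and 10.1 TPM at stage 9, 0, 7.34 and 8.88 TPM at stage 10, and 20.3 and 0 TPM at stage 11. All 12 embryos of stages 12, 14, 16 and 19 were listed at 0. At stage 24 the levels were 0, 0 and 3.98 TPM, and at stage 40 they were 42.9, 63.1 and 0 TPM. C19orf25 was thus above 0 in 30 of 49 poly(A) embryos. In the order of its stage means in TPM the highest 4 were stages 8, 40, 6 and 2, with means of 36.4, 35.3, 35.2 and 31.5 TPM, and all 11 pairs of neighbours overlapped.

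For FAM114A1, poly(A) levels were 0, 0.347 and 0 TPM at stage 3, 15.4, 4.72 and 6.32 TPM at stage 4, and 24.7, 31.4 and 3.26 TPM at stage 5. They were 27.6, 23.5 and 19.5 TPM at stage 6, 31.8, 29.4 and 34.7 TPM at stage 7, and 40.9, 32.4 and 29.0 TPM at stage 8. Every embryo of stage 4 was above every embryo of stage 3, and every embryo of stage 7 above every embryo of stage 6. FAM114A1 was then level, with 37.3, 35.6 and 35.1 TPM at stage 9, 35.2, 40.7 and 33.7 TPM at stage 10, and 40.2 and 39.6 TPM at stage 11. It was at 26.4, 26.3 and 25.3 TPM at stage 12, 14.4, 18.7 and 15.4 TPM at stage 14, and 21.3, 15.8 and 17.2 TPM at stage 16. In TPM, stage 12 was below stage 11 and above stage 14 in every embryo. In TMM-scaled CPM stage 12 had 18.3, 16.9 and 16.8, which overlapped the 14.7 and 19.2 of stage 11. Stage 14 was lower on that scale too, at 11.9, 14.2 and 12.9. At stage 19 the levels were 19.1, 16.9 and 14.6 TPM, at stage 24 they were 21.1, 14.0 and 21.4 TPM, and at stage 40 they were 64.3, 65.6 and 67.3 TPM. Stage 40 stood first in the order of stage means in TPM, at 65.7 ± 1.5 TPM (SD, n = 3), and did not overlap stage 11, the next. Of the 15 pairs of neighbours in the order, 13 overlapped.

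At stages 2 and 4 to 8 the embryos of a stage differed more in these genes than in most genes at 10 to 50 TPM, where every embryo held the gene. The SD of TPM over its mean was 88.7% for ISY1 and 53.0% for C19orf25 at stage 2, against a median of 20.5% and a 95th percentile of 74.5% over the 3806 genes at 10 to 50 TPM in that stage. No ratio is given for FAM114A1 at stages 2 and 3, where a single embryo of 3 was above 0. Stage 4 had ratios of 31.9% for ISY1, 38.8% for C19orf25 and 65.3% for FAM114A1. All were over its 95th percentile of 24.9%, with a median of 8.83%. At stage 5 the ratio was 33.5% for ISY1, 67.0% for C19orf25 and 74.3% for FAM114A1, against a median of 14.5% and a 95th percentile of 37.5%. At stage 3 that of C19orf25 was 15.3%, under the median of 17.9%, and at stage 9 it was 63.7%, over the 95th percentile of 28.1%. At stage 12 the ratios were 1.64% for ISY1 and 2.31% for FAM114A1, under the median of 9.59%. At stage 24 they were again over the median of 16.3%, with 32.4% for ISY1 and 22.1% for FAM114A1. At stage 40 that of FAM114A1 was 2.28%, under the median of 10.4%. The mean TPM lay outside 10 to 50 for FAM114A1 at stages 4 (8.81) and 40 (65.7) and for ISY1 at stage 24 (7.63). There the reference genes differ from them in level.

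**Figure D4:**
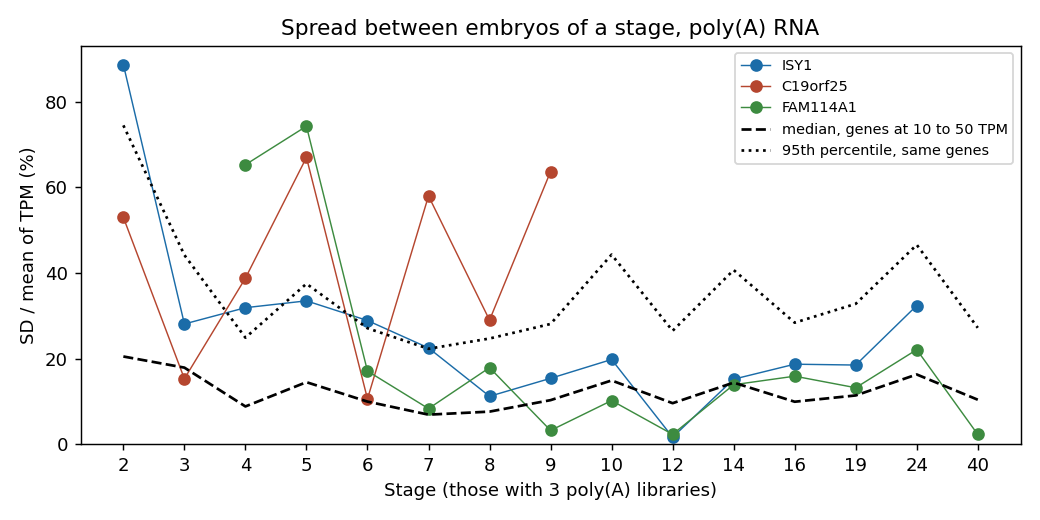
SD of poly(A) TPM between the 3 embryos of a stage as a percentage of their mean (vertical axis), for the stages with 3 libraries, with the median and the 95th percentile over genes at 10 to 50 TPM. Points are drawn where all 3 embryos were above 0. FAM114A1 is at 74.3% at stage 5 and 2.31% at stage 12, and C19orf25 is above the median at all drawn stages except stage 3.

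Several zeros stood beside well-filled libraries of the same stage. C19orf25 was listed at 0 in 1 library of stage 10, of stage 11 and of stage 40 while another library of that stage had 50 or more estimated counts. ISY1 had 1 such stage, stage 40, and FAM114A1 had 1, stage 2. In all, 172 of 15631 genes (1.1%) had at least 1 such stage and 38 (0.243%) had 2 or more. ISY1 and C19orf25 were at 0 in the same stage 40 embryo, replicate 3, whose library was the deepest of all at 44.9 M estimated counts. That embryo had 67.3 TPM of FAM114A1.

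The estimated counts of all 3 genes were fractional. RSEM, the program named in the submitters' processing notes, divides reads that align to more than 1 transcript. None of the 51 libraries with ISY1, the 32 with C19orf25 or the 48 with FAM114A1, poly(A) and total RNA together, held a whole number to within 0.005. Of 13771 genes above 0 in at least 20 libraries, 1900 (13.8%) likewise had no whole count. Which transcripts shared reads with these genes, and what part that has in the zeros, was not tested.

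End of gastrulation (stage 12) was next set against late cleavage (stage 7). Presence in cleavage was part of the choice of genes, so their differences here are given as description, with no p, in a comparison where 63.3% of 14437 genes were called. C19orf25 was listed at 0 in all 3 embryos of stage 12, against 244, 43.7 and 275 estimated counts at stage 7. Set against the stage 7 mean in TMM-scaled CPM, stage 12 was at least 94.4-fold lower. Relative to the library totals alone the bound was 185-fold.

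ISY1 and FAM114A1 gave opposite directions on the 2 scales between stages 12 and 7. In TPM, ISY1 was lower at stage 12 in every embryo, yet after TMM scaling it had 46.3, 44.4 and 44.9 scaled CPM at stage 12, against 37.6, 36.1 and 23.9 at stage 7. FAM114A1 likewise had 18.3, 16.9 and 16.8 scaled CPM at stage 12, against 11.1, 10.0 and 11.8 at stage 7. The fitted log2 changes were 0.48 ± 0.53 for ISY1 (interval -0.60 to 1.55) and 0.66 ± 0.66 for FAM114A1 (interval -0.68 to 2.00). Scaling by library size alone moved the median log2 change of all genes to -0.85 and turned both, to -0.49 and -0.31. Relative to that median, both were still higher. A fit of only these 2 stages gave 0.51 for ISY1 and 0.69 for FAM114A1.

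Between stage 40 and stage 12, ISY1 fell and C19orf25 rose, with 81.8% of genes called. ISY1 had 1.45, 3.89 and 0 scaled CPM at stage 40, against 46.3, 44.4 and 44.9 at stage 12. Its log2 change was -4.75 ± 0.64 with an edgeR adjusted p of 2.96e-08, and the median of all genes was 0.31. C19orf25 had 529, 572 and 0 estimated counts at stage 40, against 0 in each embryo of stage 12. The stage 40 mean was thus at least 217-fold higher in TMM-scaled CPM, with an edgeR adjusted p of 0.000189, although replicate 3 was at 0. In a fit of only stages 40 and 12 C19orf25 was not tested. FAM114A1 had 35.4, 39.6 and 40.9 scaled CPM at stage 40, against 18.3, 16.9 and 16.8 at stage 12. These did not overlap, but its log2 change of 1.15 ± 0.66 had an edgeR adjusted p of 0.104. That change was called at 1.58 with DESeq2 size factors and at 1.60 with library size alone. These scalings also moved the median of all genes, from 0.31 to 0.735 and 0.763 in that order. The SE of 0.66 rests on a spread estimated over all 17 stages. A fit of only stages 40 and 12 called it at 1.21 ± 0.105, with an edgeR adjusted p of 5.06e-06.

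Neighbouring stages were compared in 13 pairs that use no library of stages 1, 2 or 8, which gave 39 tests of the 3 genes. Stages 3 to 7 lie in cleavage, so for pairs that include them no p of a member is given. The share of all genes called ranged widely: it was 0% for stage 4 against 3, 0.0139% for 5 against 4, 0.263% for 6 against 5, 0.0416% for 7 against 6, 19.5% for 9 against 7, 3.72% for 10 against 9 and 0.0554% for 11 against 10. It was 37.3% for 12 against 11, 52.3% for 14 against 12, 0.443% for 16 against 14, 3.11% for 19 against 16, 24.1% for 24 against 19 and 68.6% for 40 against 24. Of the 39 tests edgeR called 4, and 3 of those were between stage 40 and stage 24. There ISY1 had a log2 change of -2.92 ± 0.62 (edgeR adjusted p 9.27e-05). C19orf25 had 4.39 ± 1.39 (edgeR adjusted p 0.00668), a call lost in a fit of those 2 stages at 4.30. FAM114A1 had 1.58 ± 0.67 (edgeR adjusted p 0.0369), a call lost without any 1 of the 6 embryos at 1.44 to 1.68 and by the DESeq2 Wald test at 1.64. That call was kept with DESeq2 size factors, library size alone, no filter and a replicate block. The fit of those 2 stages kept it too, at 1.52 ± 0.164.

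The fourth call was C19orf25 between stages 12 and 11. All 3 stage 12 embryos were at 0, against 114 and 0 estimated counts in the 2 stage 11 embryos. The edgeR adjusted p was 0.0169, and the call was lost without stage 12 replicate 1 and without stage 11 replicate 2, the embryo that held the counts. In a fit of only stages 12 and 11 the gene was not tested. FAM114A1 between stages 4 and 3 had no overlap in TPM and a fitted log2 change of 6.58 ± 1.33, in a comparison where edgeR called 0% of genes. DESeq2 put that change at 6.64, and as both stages lie in cleavage it is description. Outside cleavage its Wald test newly called C19orf25 between stages 24 and 19 at 5.13, with no share of all genes given for that test. That call rests on 26.2 estimated counts in 1 stage 24 embryo, as the other embryos of both stages were at 0. The same test no longer called FAM114A1 between stages 40 and 24.

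The proteins that join ISY1 in the Prp19 and intron-binding complexes of the spliceosome were followed beside it. Of 17 listed, 16 were in the table. All 16 were above 0 in stage 1 poly(A) RNA, as were all but 0.481% of the genes detected in stage 1 total RNA, so nothing is read from that count. In total RNA, edgeR called none of them between stage 2 and stage 1, and their median log2 change was -0.12, against -0.01 for all genes. At an unadjusted edgeR p under 0.05 there were 4 (BUD31, CTNNBL1, CWC22 and SNW1), all lower at stage 2, and the DESeq2 Wald test called 3 as lower. The share of all genes under either of these thresholds is not given here, so nothing is read from those counts.

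In poly(A) RNA after TMM scaling, edgeR called 14 of the 16 partners higher and 2 lower at stage 12 than at stage 7. Of all genes, 31.3% were called higher and 32.1% lower. The partners' median log2 change was 0.68, against 0.00 for all genes. In mean TPM only BCAS2, BUD31, RBM22 and SNW1 were higher at stage 12. The other partners were lower in mean TPM, such as CDC5L at 285 TPM, against 385 TPM at stage 7. With library size alone 3 partners were higher and 8 lower, with no share of all genes given for that scaling. The partners' median was then -0.29, against -0.85 for all genes. SNW1, a scaffold of the active spliceosome, rose by 2.35 ± 0.31, BUD31 by 1.63 ± 0.12 and BCAS2 by 1.53 ± 0.16. PPIE, a cyclophilin, fell by 0.89 ± 0.17 and ZNF830 fell by 0.62 ± 0.16. ISY1 lay at 0.48, below the partners' median, with a much wider SE.

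Between stage 40 and stage 12, 12 partners fell and 2 rose, where 35.6% of all genes were lower and 46.2% higher. The median log2 change of the partners was -1.37, against 0.31 for all genes. Among them SNW1 fell by 2.75 ± 0.31, CWC22 fell by 2.15 ± 0.15 and CDC5L, a core subunit of the Prp19 complex, fell by 2.12 ± 0.13. PPIL1 rose by 0.73 ± 0.12 and PPIE by 0.36 ± 0.17, a call that PPIE loses at 0.36 with no filter on low counts, while XAB2 and ZNF830 did not pass the test. The ISY1 change of -4.75 was below that of all 16 partners, with no test of that difference.

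**Figure D5:**
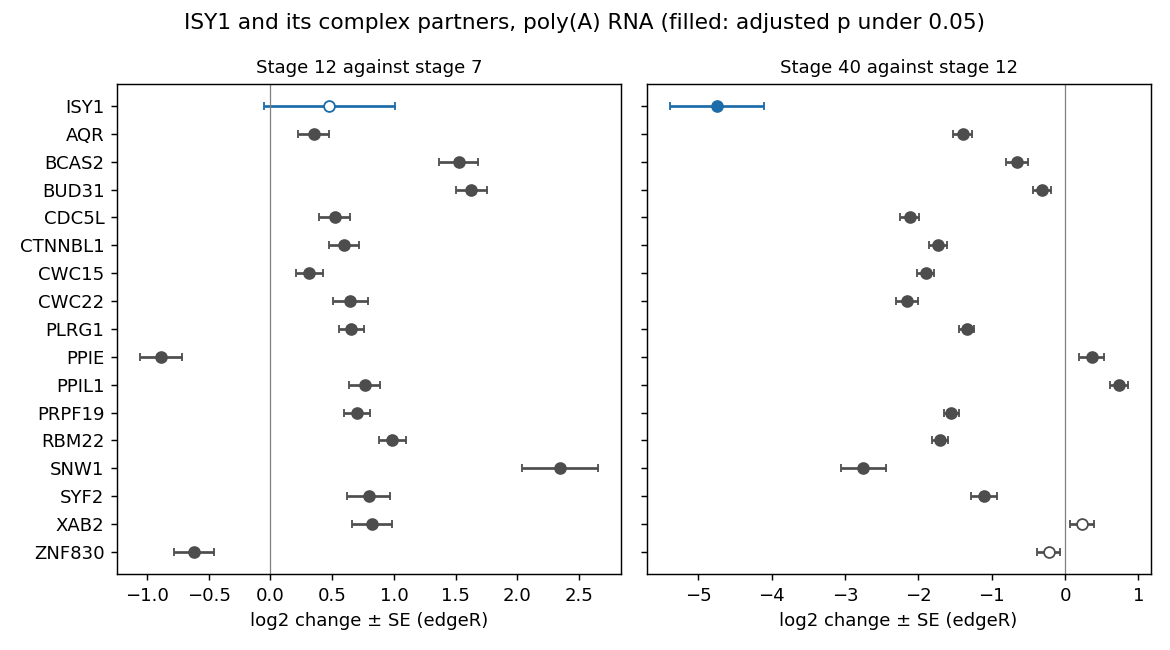
Log2 change with its SE (horizontal axes) of ISY1 and its 16 complex partners in poly(A) RNA, for stage 12 against stage 7 on the left and stage 40 against stage 12 on the right, filled where the edgeR adjusted p is under 0.05. In the right panel ISY1, at -4.75, lies left of every partner, and SNW1 is the nearest at -2.75.

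FAM114A2 was present where FAM114A1 was not. It had 12.7 ± 0.25 TPM of poly(A) RNA at stage 1 (SD, n = 2), where FAM114A1 was at 0 in both embryos, and 26.6 ± 1.22 TPM at stage 40 (SD, n = 3). Between stages 12 and 7 FAM114A2 had a log2 change of 0.79 ± 0.12 with an edgeR adjusted p of 5.28e-07, which turned to -0.17 with library size alone. The median of all genes was then -0.85, against 0 in the main fit. Between stages 40 and 12 FAM114A2 had 0.16 ± 0.12 with an edgeR adjusted p of 0.218, and was called at 0.58 with DESeq2 size factors. Both values were below the median of all genes, which was 0.31 in the main fit and 0.735 with DESeq2 size factors. In total RNA FAM114A2 had 6.61 ± 0.57 TPM at stage 2 (n = 3) and 5.84 ± 0.03 TPM at stage 1 (n = 2).

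The genes whose stage profile was most like each one were ranked by Pearson r of log2(mean TPM + 1) over the 17 stages, among 12722 genes. For ISY1 they were CCDC150 (r = 0.968), PNRC1, RTF1, PRPF38A and MSL1. PRPF38A, also a splicing factor, was at 163 TPM at stage 1 where ISY1 was at 0. For C19orf25 they were RASL10B (r = 0.958), NUDT18, BCL10, PPP1R13B and CDK5R1. All 5 were lower at stage 12 than at stage 8 and again higher at stage 40, a course that the ranking itself selects for. For FAM114A1 they included NUDC (r = 0.939), COQ9, LMAN2 and DOHH. The points share libraries and differ in depth, so r is a description. By Spearman rho, 1 of the 5 genes was shared for ISY1, 0 for C19orf25 and 0 for FAM114A1.

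Stage marks followed the labels in part. MIXL1 and CER1, genes of early germ layers, had 746 and 346 TPM at stage 12 and at most 1.08 TPM on average at stages 1 and 2. GSC, of the same set, was at 0 at stages 1 and 2 and averaged 26.8, 32.6 and 30.7 TPM at stages 9, 10 and 11. At stage 12 GSC had only 2.26 TPM. The oocyte gene BTG4 had 3.73 TPM of poly(A) RNA at stage 12, against 2286 TPM at stage 1. FBXO43, also of oocytes, had 0.452 TPM at stage 12, against 132 TPM at stage 1, but ZAR1 went the other way, with 6.83 TPM at stage 12, against 2.26 TPM at stage 1. HBE1, CKM and MYBPC3, genes of blood and muscle, were highest at stage 40, but they were also higher at stage 1 than at stage 2, with CKM at 4.72 TPM of poly(A) RNA at stage 2, against 57.1 TPM at stage 1. Total RNA had the same order, with CKM at 9.82 TPM at stage 2, against 28.3 TPM at stage 1. Their part in the results was not tested. Among named protein-coding genes, FAM114A1 lies between TMEM156 and KLF3 in the RefSeq annotation of the axolotl, and C19orf25 is not a symbol there.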

How the data were processed

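RNA of single axolotl embryos was sequenced by the authors as paired 101-base reads after poly(A) selection, 6 libraries per lane, and as single 65-base reads after removal of ribosomal RNA, per the labels' protocols. What the authors deposited are expected counts, one estimate for each gene and library with no scaling across libraries. The deposited TPM tables are the authors' own scaling for gene length and library total. The submitters' processing notes list RSEM 1.1.6 and Bowtie 0.12.1 without saying what each did; the reference sequence is not stated in any source at hand.

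After rounding, counts went into edgeR 4.0.16 (quasi-likelihood F test, TMM, filterByExpr by stage) in R 4.3.3. All 17 poly(A) stages were fitted together, with 14437 genes tested, and total RNA was fitted apart, with 11419. P-values were adjusted by Benjamini-Hochberg within a comparison, with a threshold of 0.05. The SE is the log2 change over the square root of F, and intervals are at 95%. Calls were checked on simulated counts. Bounds on folds set the mean of a stage against 3 counts over the group at 0. They cover counting error in that group only, not spread between embryos. No library pair of a stage agreed within sampling noise, with chi-square at least 5.70 per degree of freedom over 51 pairs. Each poly(A) replicate is 1 embryo, whereas the total RNA replicates may be technical. Other settings tried were single libraries left out, a replicate block, fits of 2 stages, no filter, the Wald test of DESeq2 1.42.0, its size factors within edgeR, and library size alone. Genes named are the 3 members, the complex partners and FAM114A2, the 5 genes most like each member in profile, the genes at 0 in stage 1, and stage marks, apart from results that are not reported here. The genes CKAP4, REPIN1, ZNF83, WDR53 and LOC100292565 were named after their values were seen. The members and lists were chosen with earlier results of these data known.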

Additional observations from a re-analysis of the deposited data

How the results depend on the processing

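With library size alone the changes between stages 12 and 7 turned to -0.49 for ISY1 and -0.31 for FAM114A1, and 3 partners were higher and 8 lower. This scaling moved the median of all genes to -0.85. In fits of only the 2 stages the changes between stages 12 and 7 were 0.51 for ISY1 and 0.69 for FAM114A1, as description. In such fits the FAM114A1 change between stages 40 and 12 was called at 1.21, and 2 neighbouring-stage changes were called. That FAM114A1 change was also called under library size alone at 1.60 and under DESeq2 size factors at 1.58. The median of all genes was 0.763 and 0.735 there, against 0.312 in the main fit. In total RNA, partners called lower numbered 1 with no filter, 3 by the DESeq2 Wald test and 0 to 4 with a library left out, the 4 being without stage 2 replicate 2. Partners called higher between stages 40 and 12 numbered 1 with no filter, 1 with the replicate block, 1 to 2 with a library left out, and 3 under each of both other scalings, the DESeq2 Wald test and the fit of 2 stages, against 2. Those called lower numbered 10 under both other scalings and the Wald test, against 12. No share of all genes called is given outside the main fits. The partner counts and the counts of neighbouring-stage changes under other settings, here and below, are therefore description. The total RNA change of C19orf25 ranged between -2.39 and 6.44 with a library left out, being 6.44 without stage 1 replicate 1, and the gene was not tested without stage 2 replicate 2. The cause of these differences was not tested, except that fewer samples entered the fits of 2 stages. Genes at 0 in stage 1 and present at stages 2 to 8 numbered 8 at a minimum of 5 TPM and 2 at 20 TPM.

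No link by replicate number was seen in the pairs of stages checked. Same-numbered deviations correlated at -0.06, 0.06 and 0.00 between stages 12 and 7, and at -0.03, 0.04 and -0.02 between stages 40 and 12. Different-numbered ones ran from -0.06 to 0.08 and from -0.05 to 0.07 in the same order. Other pairs of stages were not checked. The replicate block left ISY1 between stages 40 and 12 at -4.71 and called 4 neighbouring-stage changes. Total RNA columns carry no replicate numbers that the labels tie to samples, so no block was fitted there. Leaving out libraries of stages 14, 16 and 19 was not run. Over the main results and counts, 179 alternative values kept direction and side of the threshold or, for counts, lay near the main count. Another 9 newly passed the threshold or gave a larger count, 8 no longer passed it or gave a smaller count, and 3 reversed. Counts near the main one can hide lost calls: without any 1 embryo of stages 24 or 40, 3 neighbouring-stage changes were called, against 4. The tally includes the changes between stages 12 and 7, which are description. With 2 libraries at stage 1, small poly(A) levels there cannot be told from 0.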
